A study of Mus musculus with 6 samples.

Results

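The genes described here encode subunits of the 5 oxidative phosphorylation complexes that are carried on nuclear chromosomes. They were chosen by symbol (Nduf genes of the a, b, c, s and v series, Sdha to Sdhd, the Uqcr genes, Cox genes numbered 4 to 8 with a suffix a, b or c, and the Atp5 genes), with pseudogene symbols left out, and gave 76 of the 14868 genes in the deposited table. Complex I contributed 35 genes, complex II 4, complex III 8, complex IV 13 and complex V 16. Ndufa4 was counted with complex IV, where its protein is now placed. The study compared CD4+ T cells of WT mice with those of Ikzf4-/- mice, which lack the Ikaros-family zinc finger protein Eos, to ask how T helper 2 (Th2) cells differ without it. Both genotypes had a C57BL/6J background, and the labels do not say how the Ikzf4 allele was made. Naïve cells of either genotype were grown for 72 h in complete IMDM with 10 µg/mL anti-Ifng and 10 ng/mL IL-4 on plate-bound antibodies (5 µg/mL anti-CD3, with anti-CD28 at 2 µg/mL). Total RNA gave 3 WT and 3 Ikzf4-/- libraries, whose values are listed below in the order of replicates 1 to 3. Nothing states that the libraries of a genotype came from separate animals or cultures, so p-values measure the spread between libraries, which may be technical.

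Oxidative phosphorylation passes electrons from NADH through complex I, and from succinate through complex II, to ubiquinone, then through complex III and cytochrome c to complex IV, which reduces oxygen. Complexes I, III and IV pump protons across the inner mitochondrial membrane, and complex V, the ATP synthase, makes ATP as the protons flow back. Each complex except complex II joins nuclear-encoded subunits to a few encoded in mitochondrial DNA. Naïve T cells rely largely on this pathway, and activated T cells expand their mitochondria while glycolysis also rises.

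Ikzf4 itself checked the labels. Its normalized read count was 756, 499.6 and 483 in WT cells and 25.2, 10.5 and 38.2 in Ikzf4-/- cells, and it fell by 4.64 on the log2 scale (SE 0.37, limma adjusted p = 0.000389). The 9 T cell genes checked, among them Cd3e, Cd4 and Gata3, summed to 119370 to 125628 normalized reads per library. Within that sum, 5 genes had a log2 fold change above 0 and 4 below. Gata3 had -0.24, Cd3g -0.16 and Trac 0.19 (limma adjusted p = 0.146, 0.130 and 0.0902). Of the 9, limma called 0 and the authors' deposited table had 2, against 1.77% and 6.34% of all genes with such values. The 4 B cell genes with values summed to 1310 to 1503, the CD8 genes to 232 to 423 and the 2 natural killer cell genes to 166 to 338. The single erythroid gene with values reached 18.4 at most, and the myeloid genes were not analysed here. Depth implied by the normalized values was 34701390 to 40604346 reads per library. WT replicate 1 stood apart from the other WT libraries on the first principal component of all genes, at -41.3 against -12.5 and -5.26. The Ikzf4-/- libraries lay at 11.1, 17.1 and 30.8, with replicate 3 at the opposite end. The labels gave no batch.

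In Th2 cells lacking Ikzf4 the nuclear subunit genes stayed close to their WT levels. The sum of all 76 was 405237, 403074 and 423271 normalized reads in WT cells and 414936, 418393 and 402056 in Ikzf4-/- cells. The Ikzf4-/- libraries lay inside or next to the WT range, and the mean sums of 410527 ± 11089 and 411795 ± 8609 (SD, n = 3 each) differed by 0.309%. The genes took 1.08% to 1.15% of each library. In these bulk libraries, fewer cells of a type and less RNA per cell cannot be told apart.

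Gene by gene, limma on log2(value + 1) called 0 of 76 at an adjusted p under 0.05, where 263 of the 14864 genes tested (1.77%) were called. At an unadjusted p under 0.05 there were 8 of 76 (10.5%), against 2687 genes (18.1%). The authors' deposited table had 2 of 76 at an adjusted p under 0.05, namely Ndufv3 and Cox6a1, where 6.34% of the 12849 genes with such a value there passed. Without WT replicate 1, which stood apart from the other WT libraries, limma also called 0 of 76, as it did without Ikzf4-/- replicate 3. All 76 genes passed the filter on low values, a mean of at least 10, and 73 of them had a mean of at least 400.

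The median log2 fold change, Ikzf4-/- over WT, was 0.01 over the 76 genes and 0.00 over all genes tested, with 42 values above 0 and 34 below. Fitted log2 fold changes ran from -0.29 for Ndufv3 to 0.22 for Ndufa4. The median absolute log2 fold change was 0.053, against 0.113 over all genes tested, and the median SE was 0.057 against 0.095. For 70 of 76 genes the whole 95% interval of the difference lay within 1.25-fold either way, and for 75 of 76 within 1.5-fold, against 6951 and 9748 of 14864 genes. The 6 genes with wider intervals were Ndufv3, Uqcr10, Ndufa4 and the low-level Cox6b2, Cox7a1 and Atp5s.

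**Figure D1:**
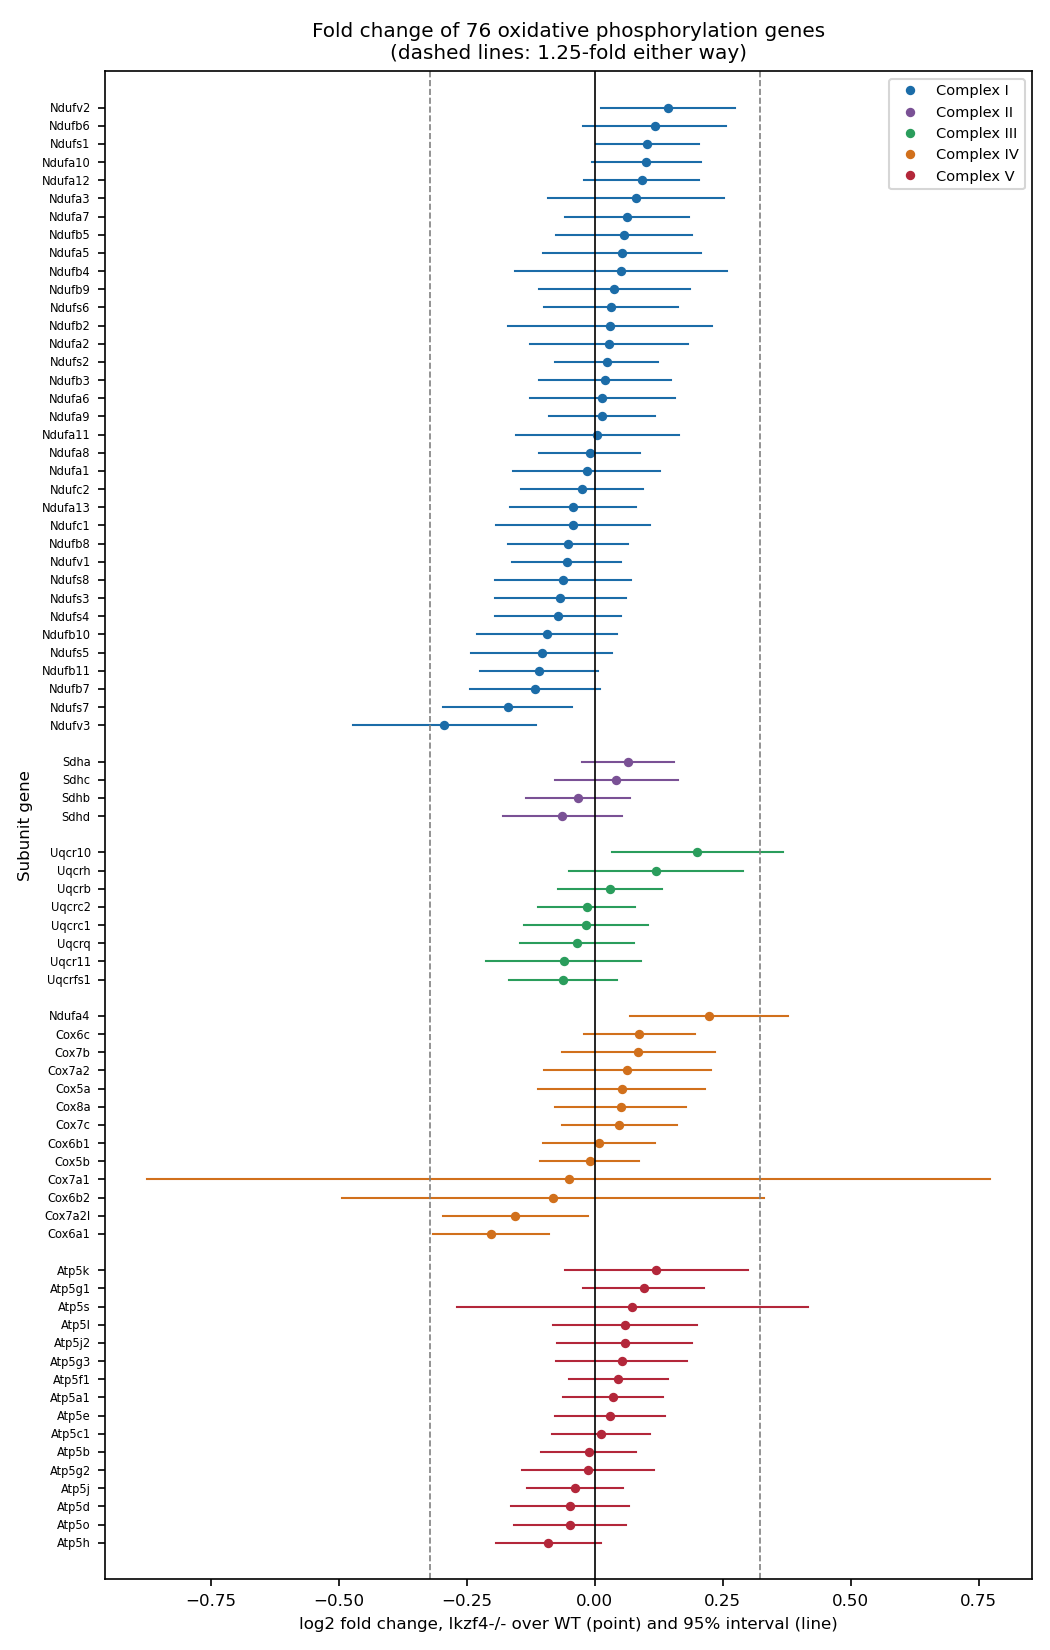
Log2 fold change (Ikzf4-/- over WT, horizontal axis) of each of the 76 subunit genes, grouped and coloured by complex, with its 95% interval as a line and 1.25-fold either way as dashed lines. The points run from -0.29 (Ndufv3) to 0.22 (Ndufa4), and 70 intervals stay between the dashed lines.

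For 12 of the 76 genes the WT and Ikzf4-/- values did not overlap (6 lower and 6 higher in Ikzf4-/- cells), against 23.1% of all genes tested. The 6 lower genes were Ndufv3, Ndufs7, Ndufb11, Ndufs4, Cox6a1 and Atp5h, and the 6 higher were Ndufa12, Ndufa10, Ndufs1, Ndufv2, Sdha and Ndufa4. They were spread over 4 complexes, and within complex I they pointed both ways.

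Promoter sequence from RefSeq was matched to 64 of the 76 genes (69 windows of 250 bases before to 50 after the start, build GRCm38.p6). Nuclear respiratory factor 1 (NRF1), GABP and YY1 are factors known to act on genes of this kind. The NRF1 letters GCGCANGCG, on either strand, occurred in 30.4% of the 69 windows, against 6.25% of 32851 windows of all genes. The GABP letters CCGGAAG occurred in 23.2% against 8.86%, and the YY1 letters AANATGGC in 23.2% against 6.05%. The letters TGGGAA, a core bound by Ikaros-family proteins, occurred in 21.7% against 25.6%. The windows of the subunit genes also had a higher median GC content, 57.3% against 52.7%, and a median of 19 CpG against 7. The NRF1 and GABP letters are mostly G and C and hold a CpG, while the YY1 and TGGGAA letters hold none. The part of base composition in these shares was not tested. A match is a description of letters and not a shown binding site.

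The 250 bases before the start of 4 genes are shown. Cox6a1 and Ndufv3 had the lowest fold changes of complexes IV and I, Ndufa4 had the highest of all 76 genes, and Sdha is shown as a stretch with several NRF1 matches. Capitals mark matches to the NRF1, GABP or YY1 letters on either strand.
Cox6a1, chr5:115348959-115349208, minus strand: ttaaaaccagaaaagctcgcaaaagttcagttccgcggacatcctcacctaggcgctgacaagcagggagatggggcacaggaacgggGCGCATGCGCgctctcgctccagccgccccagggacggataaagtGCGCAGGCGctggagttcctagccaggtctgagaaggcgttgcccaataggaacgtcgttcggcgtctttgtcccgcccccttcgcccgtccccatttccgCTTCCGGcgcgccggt
Sdha, chr13:74350241-74350490, minus strand: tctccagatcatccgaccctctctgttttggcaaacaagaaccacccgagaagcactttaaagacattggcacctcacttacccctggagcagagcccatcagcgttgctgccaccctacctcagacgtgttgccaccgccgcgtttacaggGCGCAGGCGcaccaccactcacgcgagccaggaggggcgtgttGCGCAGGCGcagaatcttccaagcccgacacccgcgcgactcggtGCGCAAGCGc
Ndufv3, chr17:31519865-31520114, plus strand: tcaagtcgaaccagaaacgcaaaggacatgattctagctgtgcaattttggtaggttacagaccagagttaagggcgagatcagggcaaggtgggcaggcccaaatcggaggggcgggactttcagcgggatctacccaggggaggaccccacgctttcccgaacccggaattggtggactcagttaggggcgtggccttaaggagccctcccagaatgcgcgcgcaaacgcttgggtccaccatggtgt
Ndufa4, chr6:11907451-11907700, minus strand: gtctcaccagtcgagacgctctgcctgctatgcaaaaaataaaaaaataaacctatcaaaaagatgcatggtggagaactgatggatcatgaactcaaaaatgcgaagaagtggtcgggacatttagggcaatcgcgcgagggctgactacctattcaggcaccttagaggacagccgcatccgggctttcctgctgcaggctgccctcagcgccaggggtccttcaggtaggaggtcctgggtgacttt
Cox6a1 held 3 NRF1 matches, of which the first 2 overlap in the first run of capitals, and 1 GABP match. Sdha held 3 NRF1 matches, and in the stretches shown for Ndufv3 and Ndufa4 none of these letters occurred.

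Transcript levels were high. Per kilobase of transcript, the median over the 76 genes was 4258 normalized reads, at the 94.9th percentile of all genes, where the median was 256. Complex medians per kilobase were 3124 for complex I, 3864 for II, 5798 for III, 5827 for IV and 7888 for V. Atp5b, which encodes the catalytic beta subunit of ATP synthase, was highest with 31613 per kilobase, followed by Cox6a1 with 21989.6, Atp5g3 with 18357 and Atp5a1 with 18025. The lowest were Atp5s with 80.4, Cox7a1 with 96.3 and Cox6b2 with 220 per kilobase, so the range covered 393-fold. Among the genes of complex I the lowest was Ndufb4, with 508 per kilobase. Its reads could be split with 2 pseudogene copies, of which Ndufb4c matched 100% over 390 bases, so this level is uncertain.

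**Figure D2:**
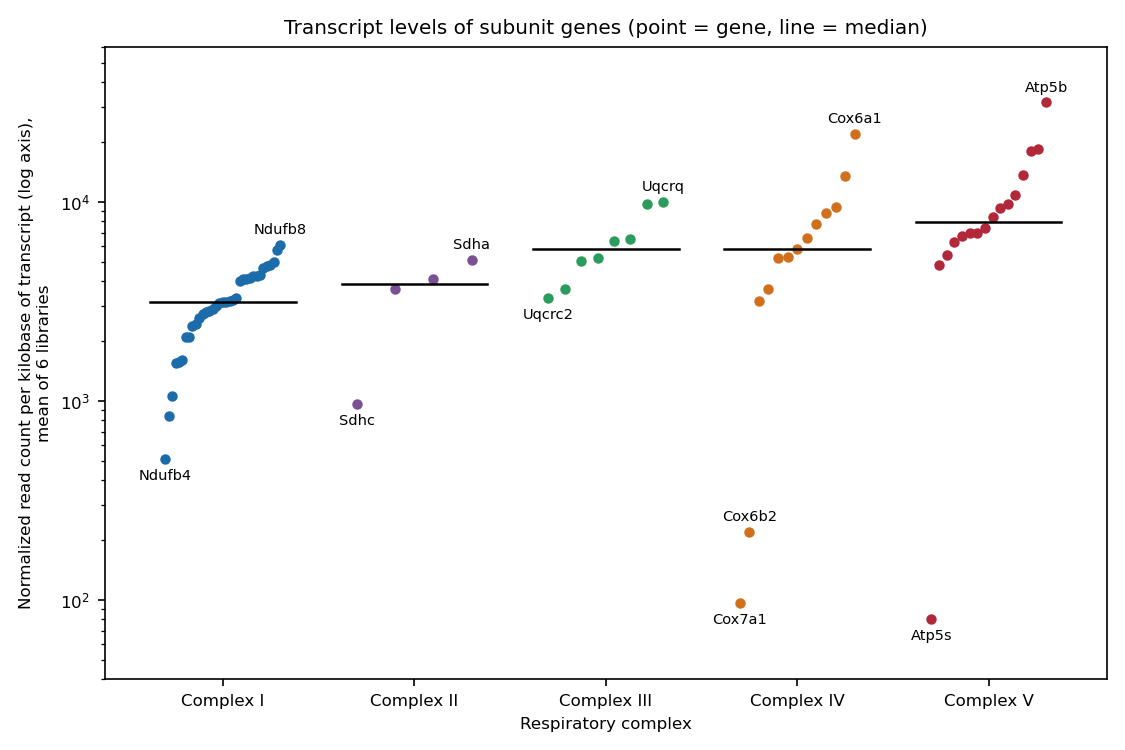
Normalized read count per kilobase of transcript (log axis, mean of 6 libraries) of each subunit gene, by complex, with the median of each complex as a line. The points run from 80.4 (Atp5s) to 31613 (Atp5b), with Cox7a1 and Cox6b2 also far below the rest.

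Complex I takes electrons from NADH in a peripheral arm, which holds the flavoprotein and iron-sulfur subunits, and pumps protons through a membrane arm. Of its 35 nuclear genes 0 were called by limma, and the authors' deposited table had 1. An unadjusted p under 0.05 was reached by 4 of 35 (11.4%), against 18.1% of all genes tested. The median log2 fold change of complex I was 0.01, and 34 of 35 intervals lay within 1.25-fold. Genes of the NADH-oxidizing module lay at both ends of the range. Ndufv3 (ENSMUSG00000024038, chr17:31520115-31531331 on the plus strand of GRCm38), an accessory flavoprotein subunit, read 3022, 2585 and 2536 normalized reads in WT cells and 2162, 2429 and 2048 in Ikzf4-/- cells. WT replicate 1 was the highest, and the genotypes did not overlap. The means were 2714 ± 268 and 2213 ± 195 (SD, n = 3 each), or -0.29 as log2 fold change (SE 0.081, limma adjusted p = 0.0910). The authors' deposited table gave -0.29 with an adjusted p of 0.0150 for Ndufv3. Without WT replicate 1 the limma value was -0.21 (adjusted p = 0.186), and it ran from -0.36 to -0.21 over the fits that left out 1 library each. With the replicate number of the labels as a block, Ndufv3 alone of the 76 genes was called (limma adjusted p = 0.0479), where 5.07% of all genes were.

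Ndufv2, an iron-sulfur subunit beside the flavin site, was at the other end. It read 3454, 3262 and 3407 normalized reads in WT cells and 4045, 3647 and 3505 in Ikzf4-/- cells. The genotypes did not overlap, with Ikzf4-/- replicate 1 the highest, and the log2 fold change was 0.14 (SE 0.060, limma adjusted p = 0.237). Without Ikzf4-/- replicate 1 it was 0.084 (adjusted p = 0.519). Ndufs1, the largest iron-sulfur subunit of the same module, was chosen after its values were seen, for its narrow spread in WT. It read 3935, 3917 and 3905 in WT and 4076.5, 4333 and 4215 in Ikzf4-/- cells, or 0.10 on the log2 scale (limma adjusted p = 0.268).

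Ndufs7, the subunit that carries the last iron-sulfur cluster before ubiquinone, read 3384, 3113 and 3172 in WT cells and 2694, 2937 and 2962 in Ikzf4-/- cells. The genotypes did not overlap, with -0.17 on the log2 scale (SE 0.057, limma adjusted p = 0.146). With a correction of each library for the GC content and length of transcripts the value was -0.10. In the membrane arm, the log2 fold change of the accessory subunit gene Ndufb6 was 0.12 (limma adjusted p = 0.364) with overlapping values. Ndufb8, another membrane arm accessory gene and the highest of complex I per kilobase (6093), had -0.05 (limma adjusted p = 0.657).

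Complex II oxidizes succinate and links the chain to the TCA cycle. None of its 4 genes was called by limma or in the authors' deposited table, and all 4 intervals lay within 1.25-fold. An unadjusted p under 0.05 was reached by 0 of 4, against 18.1% of all genes tested. Sdha, the flavoprotein that holds the succinate site and the highest of the 4 per kilobase (5124), read 14271, 14811 and 14502 in WT cells and 15108, 15508 and 14965 in Ikzf4-/- cells. The genotypes did not overlap but lay close, 0.06 apart on the log2 scale (SE 0.041, limma adjusted p = 0.446). Sdhb, the iron-sulfur subunit, had -0.03, and the membrane anchors Sdhc and Sdhd had 0.04 and -0.06, each with overlapping values.

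Complex III passes electrons from ubiquinol to cytochrome c. None of its 8 genes was called by limma or in the authors' deposited table. An unadjusted p under 0.05 was reached by 1 of 8 (12.5%), against 18.1% of all genes tested. Over the complex the median log2 fold change was -0.02, and 7 of 8 intervals lay within 1.25-fold. The exception was Uqcr10 (ENSMUSG00000059534, chr11:4701973-4704342 on the minus strand of GRCm38), a small membrane subunit. It read 3566, 3827 and 4508 in WT cells and 4543, 4650.4 and 4416 in Ikzf4-/- cells. WT replicate 3 fell among the Ikzf4-/- libraries, while the other WT libraries were lower. The means were 3967 ± 486 and 4536 ± 117 (SD, n = 3 each), and the log2 fold change was 0.20 (SE 0.076, limma adjusted p = 0.194). Without WT replicate 1 it was 0.13 (adjusted p = 0.435). Uqcrh, the acidic hinge protein near cytochrome c1, had 0.12 with overlapping values. Uqcrfs1, the Rieske iron-sulfur protein, and Uqcr11 each had -0.06. Uqcrq, highest of complex III per kilobase (10015), had -0.03.

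Complex IV reduces oxygen, and its nuclear subunits surround a core made from mitochondrial DNA. None of its 13 genes was called by limma, and the authors' deposited table had 1. An unadjusted p under 0.05 was reached by 3 of 13 (23.1%), against 18.1% of all genes tested. The median log2 fold change was 0.05. It was -0.047 with that correction for GC content and length, so its sign depends on that step. The intervals of 10 of 13 genes lay within 1.25-fold. Cox6a1 (ENSMUSG00000041697, chr5:115345642-115348981 on the minus strand of GRCm38), the widely expressed form of subunit VIa and the most abundant of the complex per kilobase, read 13627, 13183 and 13473.5 in WT cells and 10829, 12001 and 12222 in Ikzf4-/- cells. Every Ikzf4-/- library was below every WT library, and Ikzf4-/- replicate 1 was lowest. The means were 13428 ± 225 and 11684 ± 749 (SD, n = 3 each), or -0.20 as log2 fold change (SE 0.052, limma adjusted p = 0.0763). The authors' deposited table gave -0.20 with an adjusted p of 0.0152 for Cox6a1. Leaving out 1 library at a time gave limma values from -0.24 to -0.15, none of them called.

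Ndufa4 (ENSMUSG00000029632, chr6:11900292-11907497 on the minus strand of GRCm38), named for complex I and now counted as a subunit of complex IV, had the highest fold change of the 76 genes. It read 2918, 3357 and 3586 in WT cells and 3885, 3722 and 3861 in Ikzf4-/- cells. The genotypes did not overlap, WT replicate 1 was lowest, and the log2 fold change was 0.22 (SE 0.070, limma adjusted p = 0.129). Without WT replicate 1 it was 0.14 (adjusted p = 0.268). Without WT replicate 3, Ndufa4 (0.29, limma adjusted p = 0.0457) and Uqcr10 (0.30, limma adjusted p = 0.0238) were the only 2 of the 76 called, where 3.52% of all genes were. The authors' deposited table gave an adjusted p of 0.0585 for Ndufa4 and 0.135 for Uqcr10.

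**Figure D3:**
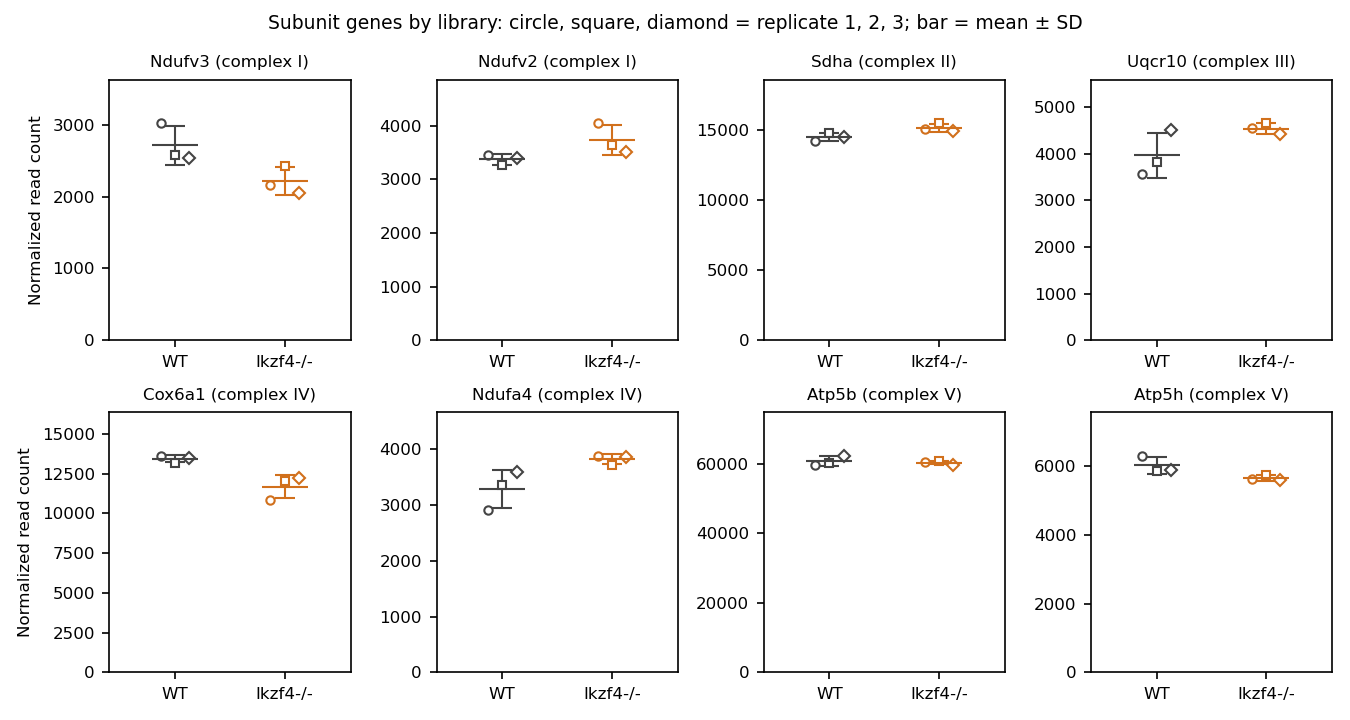
Normalized read counts (vertical axes from 0) of 8 subunit genes in the 3 WT and 3 Ikzf4-/- libraries, with the replicate as the symbol and mean ± SD as bars. Cox6a1, Ndufv3 and Atp5h do not overlap and are lower in Ikzf4-/- cells, Ndufa4, Ndufv2 and Sdha do not overlap and are higher, and Uqcr10 and Atp5b overlap.

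Cox7a2l, a relative of subunit VIIa that takes part in joining complexes III and IV and is known to be shortened in C57BL/6 mice, read 3916, 3519 and 3401 in WT cells and 3175, 3443 and 3105 in Ikzf4-/- cells. The values overlapped through Ikzf4-/- replicate 2, and the log2 fold change was -0.16 (SE 0.064, limma adjusted p = 0.234). Without WT replicate 1 it was -0.095 (adjusted p = 0.522). Cox6c, a small membrane subunit, had 0.09. The forms restricted to other tissues were low in both genotypes. Cox7a1, the muscle form, read 51.1, 49.4 and 19.4 in WT and 29.3, 37.7 and 40.2 in Ikzf4-/- cells, which is 96.3 per kilobase against 5236 per kilobase for Cox7a2, the widespread form. Cox6b2, the testis form, stood at 220 per kilobase against 6596 per kilobase for Cox6b1. Their wide intervals, from -0.87 to 0.77 for Cox7a1 and from -0.49 to 0.33 for Cox6b2 on the log2 scale, leave a difference of moderate size undetectable at this depth. Ndufa4l2, Cox6a2, Cox7b2, Cox8b and Cox8c were not analysed here.

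Complex V, the ATP synthase, joins a catalytic F1 head to a membrane Fo ring. None of its 16 genes was called by limma or in the authors' deposited table. An unadjusted p under 0.05 was reached by 0 of 16, against 18.1% of all genes tested. The median log2 fold change of complex V was 0.03, and 15 of 16 intervals lay within 1.25-fold. Atp5b read 59661, 60384 and 62410.3 in WT cells and 60439, 60715.5 and 59807 in Ikzf4-/- cells. The libraries overlapped closely, with a log2 fold change of -0.01 (95% interval -0.10 to 0.08, limma adjusted p = 0.918). Atp5b (chr10:128083273-128090391) lies on the same chromosome as Ikzf4 (chr10:128630843-128645991), 540452 bases away. Atp5a1, the alpha subunit of the head, had 0.04.

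Of the stalk and ring genes, Atp5h, which encodes stalk subunit d, was the lowest. It read 6296, 5855 and 5887 in WT cells and 5624, 5733 and 5577 in Ikzf4-/- cells. The genotypes did not overlap, with -0.09 on the log2 scale (SE 0.046, limma adjusted p = 0.333), and without WT replicate 1 the value was -0.057 (adjusted p = 0.662). Atp5o, the subunit that joins the stalk to the head, had -0.05, and Atp5k, the membrane subunit e, had 0.12, both with overlapping values. The 3 genes of ring subunit c, Atp5g1, Atp5g2 and Atp5g3, encode the same mature protein behind different import sequences. Their levels per kilobase were 8400, 13660.2 and 18357, and their log2 fold changes 0.10, -0.01 and 0.05, each with overlapping values. Atp5s, a coupling factor and not a structural subunit, read 116, 113 and 119 in WT and 135, 114 and 119 in Ikzf4-/- cells.

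The subunit genes also shared a pattern by library. In WT replicate 3, 65 of 76 genes lay above their own mean over the 6 libraries, and 33 had their highest value there. The counts above the mean were 30 and 13 in WT replicates 1 and 2, and 44, 55 and 24 in Ikzf4-/- cells. Median deviations from the gene's own mean, in log2 units, were -0.02, -0.04 and 0.06 in WT cells and 0.02, 0.03 and -0.02 in Ikzf4-/- cells. Subunit transcripts are short, with a median of 760.5 bases against 2558 for all genes tested. The 2116 genes with transcripts of up to 1000 bases showed median deviations of -0.01, -0.02 and 0.04 in WT and 0.03, 0.03 and -0.01 in Ikzf4-/- libraries. Transcript length thus moved with the library pattern, and its part in it was not tested. The median log2 fold change was 0.02 for the 49 subunit genes of up to 1000 bases and 0.01 for the 27 longer ones.

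**Figure D4:**
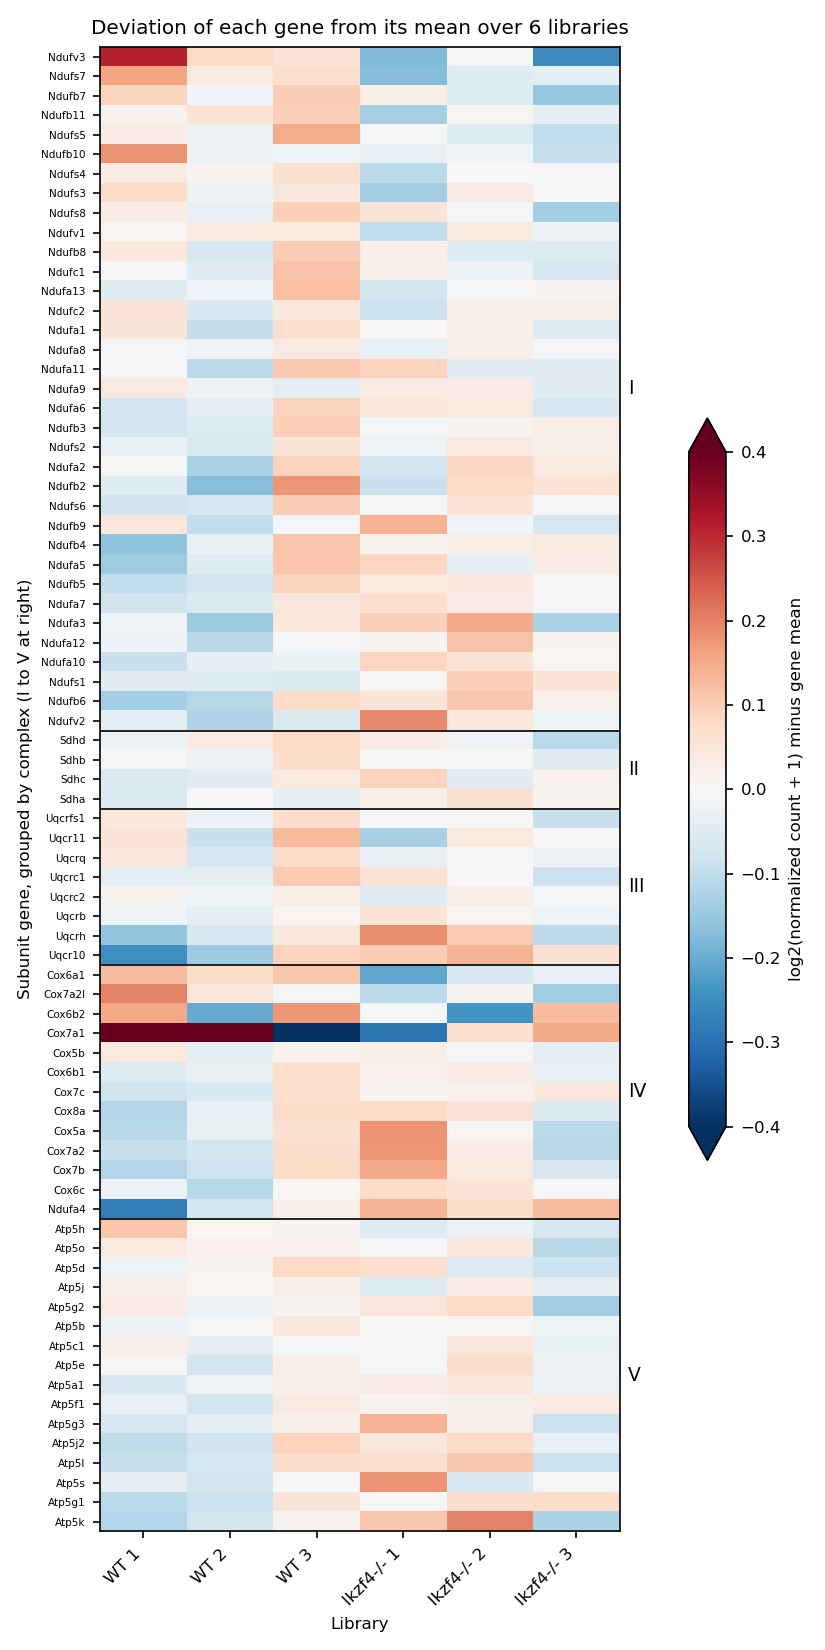
Deviation of log2(normalized read count + 1) from the gene's mean over 6 libraries (colour, red above and blue below), with genes in rows grouped by complex and libraries in columns. WT replicate 3 is above the mean for 65 of 76 genes and WT replicate 2 for 13.

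Many subunit genes have processed pseudogenes. In GENCODE M21, 21 of the 76 had pseudogene transcripts of at least 95% identity over at least 100 bases, 43 copies in all, and 9 of these had values of their own, the largest at 2.15% of the subunit gene. Reads of these 21 genes could be split with their copies, while Ndufv3, Cox6a1, Ndufa4 and Uqcr10 had no such copy and no overlapping gene.

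The partners of these subunits were then examined. Of the 13 subunit genes of mitochondrial DNA 0 were called by limma, 5 had an unadjusted p under 0.05, and the authors' deposited table had 1. The shares over all genes with such values were 1.77%, 18.1% and 6.34%. A log2 fold change above 0 was seen for 12 of 13 (median 0.12), against 7621 of 14864 genes tested. Among the 12 are mt-Atp6, mt-Co2, mt-Co3 and mt-Nd4l, whose values are uncertain for the reason given below. The largest of the 12, mt-Atp8 with 0.49 (95% interval -0.26 to 1.24), had few reads. It read 16.0, 23.4 and 28.1 in WT and 32.3, 40.8 and 23.1 in Ikzf4-/- cells. For mt-Co1 the value was 0.01. Whether the 13 genes vary independently of each other was not tested. The 13 genes summed to 488194, 484391 and 531638 normalized reads in WT cells and 540905, 525301 and 526746 in Ikzf4-/- cells. WT replicate 3 thus fell inside the Ikzf4-/- range. The values of mt-Nd2, mt-Nd4, mt-Nd5 and mt-Nd6, complex I subunits, did not overlap between genotypes and were higher in Ikzf4-/- cells. These were 4 of 13 genes, against 23.1% of all genes tested without overlap in either direction. The log2 fold change nearest to a call was that of mt-Nd6, which read 6858, 6721 and 7594 in WT and 9024, 8072 and 7967 in Ikzf4-/- cells (0.24, SE 0.062, limma adjusted p = 0.0778). The authors' deposited table gave mt-Nd6 an adjusted p of 0.0102. Nuclear copies of at least 95% identity were found for 9 of the 13 genes. The copy's own values came to 149% of the gene for mt-Atp6, 117% for mt-Co2, 29.7% for mt-Co3, 20.8% for mt-Nd4l and 3.92% for mt-Nd3, so these 5 values are uncertain. For mt-Nd4 the copy came to 0.141% and for mt-Co1 to at most 0.0202%, while the copies of mt-Nd2 and mt-Nd5 were not analysed here, and reads could be split with them too.

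Some nuclear subunits, and cytochrome c, fall outside the symbol pattern. Of the 7 with values, among them Cyc1 (cytochrome c1), Cycs (cytochrome c) and Ndufab1, 0 were called by limma or in the authors' deposited table. At an unadjusted p under 0.05 there was 1 of 7, against 18.1% of all genes tested. That gene was Cox4i1, the widespread form of complex IV subunit IV, which read 14789.7, 14009 and 14364.5 in WT and 13554, 13143 and 12952 in Ikzf4-/- cells (log2 fold change -0.12, limma adjusted p = 0.161).

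Among 50 assembly factors with values, the median log2 fold change was 0.00. Of the 50, limma called 1, which fell, against 1.77% of all genes tested. The authors' deposited table had the same number, against 6.34% of all genes with an adjusted p there. The gene was Higd1a, a hypoxia-inducible inner membrane protein linked to complex IV, which read 6196, 5619 and 5691 in WT cells and 4456, 5143 and 4043 in Ikzf4-/- cells. No library overlapped, and Higd1a fell by 0.37 on the log2 scale (SE 0.079, limma adjusted p = 0.0474). The authors' deposited table gave -0.36 with an adjusted p of 0.000523 for Higd1a. The limma call for Higd1a was kept without WT replicate 3 (0.0495) and without Ikzf4-/- replicate 2 (0.0268). It was lost without each other library (limma adjusted p 0.0679 to 0.154), with quantile scaling (0.0502) and with equal library totals (0.0518).

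Among 6 carriers and porins, limma called 1, against 1.77% of all genes tested. The authors' deposited table also had 1, against 6.34% of all genes with an adjusted p there. In both it was Vdac1, a porin of the outer mitochondrial membrane. Vdac1 read 11594, 10383 and 10059 in WT cells and 9091, 8846 and 8394 in Ikzf4-/- cells, without overlap. It fell by 0.28 on the log2 scale (SE 0.058, limma adjusted p = 0.0436). The authors' deposited table gave -0.28 with an adjusted p of 0.000715 for Vdac1. The limma call for Vdac1 was kept without WT replicate 1 (0.0464) or WT replicate 3 (0.0230). It was lost without each other library (limma adjusted p 0.0803 to 0.158). Vdac2 and Vdac3, the other porins, had 0.02 and 0.00, and Slc25a3, the phosphate carrier, had 0.12 (limma adjusted p = 0.225).

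**Figure D5:**
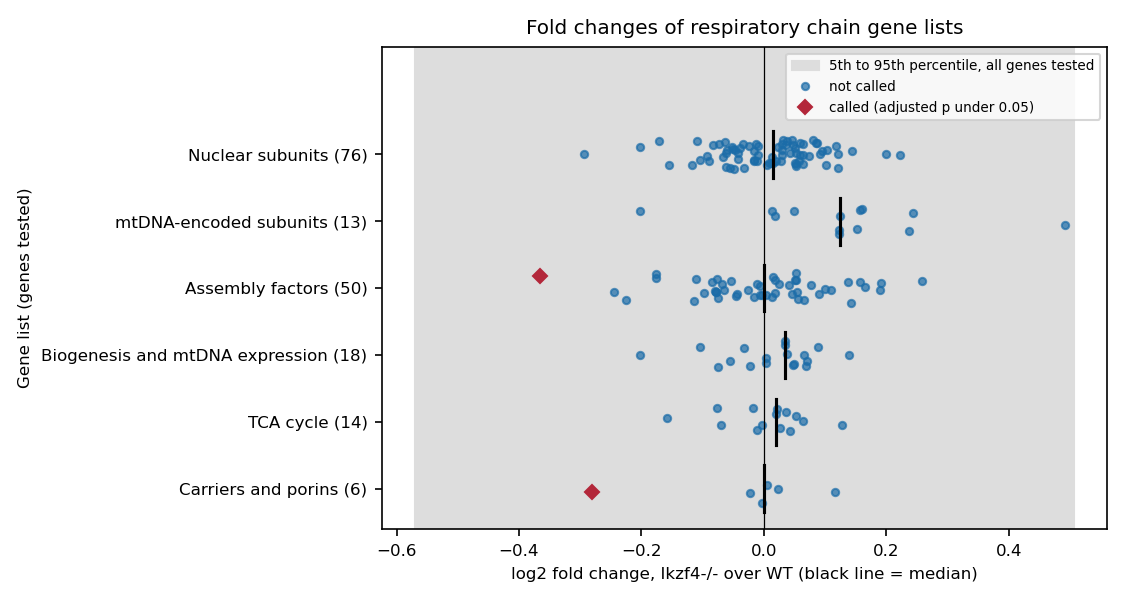
Log2 fold change (Ikzf4-/- over WT) of each gene in 6 lists around the respiratory chain, with the list's median as a black line, called genes as red diamonds and the 5th to 95th percentile of all genes tested (-0.57 to 0.51) in grey. The medians run from 0.00 to 0.12, and the 2 called genes, Higd1a and Vdac1, are lower.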

How the data were processed

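RNA of Th2-cultured cells was measured in 3 WT and 3 Ikzf4-/- libraries. The submitters' processing notes name Trimmomatic 0.36, STAR 2.5.2b, DESeq2 and GRCm38 (mm10); the counting tool, its use of strand and the annotation are not given in the sources used here. The authors deposited a never-negative signal, read here as normalized counts because each library's values are whole multiples of 1 step (tolerance 0.01), with log2 fold changes and p-values of their own comparison per the file headers. The design named a count test for raw counts; the values were normalized, so limma-trend (limma 3.58.1, R 4.3.3) was fitted to log2(value + 1) of all 14864 genes with a mean of at least 10 (4 left out), genotype the only term, two-sided, Benjamini-Hochberg over all genes, called at an adjusted p under 0.05. Folds of low genes are understated on this scale. The fit was tested on simulated data.

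Positions and transcript lengths came from GENCODE M21 by gene identifier, copies from BLAST+ 2.17.0, and promoters from RefSeq. The members and lists were chosen with earlier results of these data known. Genes named were, in each complex, the 2 highest and 2 lowest fold changes and the highest level per kilobase, restricted isoforms with their counterparts, the Atp5g genes, called genes of the other lists and Ikzf4; others were chosen after their values were seen. Alternatives were other scalings, filters, pseudocounts (0.1 and 10), array weights, the replicate block, a GC and length correction, each library left out, a threshold of 0.01, and the authors' deposited calls.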

Additional observations from a re-analysis of the deposited data

How the results depend on the processing

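The count of 0 called subunit genes was the same under the other scalings, filters and pseudocounts, with array weights, with the GC and length correction and at 0.01. With the replicate block it was 1, which was lower, and the authors' deposited table gave 2, both lower. Leaving out each library in turn gave 0 to 2, all higher, with 2 without WT replicate 3. Equal replicate numbers were not treated as pairs in the main fit, and the block is given here for that reason. Deviations from the group means correlated at 0.145, 0.0122 and 0.142 for equal numbers, and at -0.163 to 0.0491 for different numbers. The highest values were thus those of equal numbers 1 and 3, while WT replicate 2 correlated best with Ikzf4-/- replicate 3. The labels do not say whether equal numbers were processed together. The block raised the called genes from 263 to 754 overall.

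The median log2 fold change of the 76 genes ran from -0.01 to 0.04 over all alternatives. That of complex IV was -0.047 after the GC and length correction, against 0.05, and the cause was not tested. The medians of all 76 genes, complex I and complex V also went from above 0 to below 0 with it. Over all genes, 177 were called after that correction, 482 with array weights, 16 at 0.01, 815 in the authors' deposited table, and 20, 48, 75, 111, 264 and 523 when 1 library was left out, with the fewest without Ikzf4-/- replicate 3. With 3 libraries per genotype the median SE of 0.057 sets the precision for the subunit genes.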

Other observations

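Genes around the respiratory chain were also measured. The TCA cycle feeds NADH and succinate to the chain. Of its 14 genes with values 0 were called by limma or in the authors' deposited table, and the median log2 fold change was 0.02. Values of 3 of 14 did not overlap, against 23.1% of all genes tested. At an unadjusted p under 0.05 there was 1 of 14, against 18.1%. That gene was Idh3b, a subunit of NAD-dependent isocitrate dehydrogenase, which read 5238, 5539 and 5752 normalized reads in WT and 6115, 6061 and 5873 in Ikzf4-/- cells, without overlap (log2 fold change 0.13, limma adjusted p = 0.196). The other subunits Idh3a and Idh3g had 0.04 and -0.08. Idh3a overlapped, while Idh3g also did not overlap but was lower in Ikzf4-/- cells. Idh3g read 5357, 5632 and 5358 in WT and 5224.5, 5237 and 5044 in Ikzf4-/- cells (limma adjusted p = 0.414). Cs, citrate synthase, often used as a marker of mitochondrial content, had -0.07 with overlapping values.

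Of 18 regulators of mitochondrial biogenesis and of mitochondrial DNA expression, 0 were called by limma or in the authors' deposited table. At an unadjusted p under 0.05 there were 2 of 18, Esrra and Yy1, against 18.1% of all genes tested. The same 2 of 18 did not overlap, against 23.1% of all genes tested. Esrra, the estrogen-related receptor alpha, read 1221, 1169.9 and 1129 in WT and 1007, 981 and 1071 in Ikzf4-/- cells, without overlap (log2 fold change -0.20, limma adjusted p = 0.142). Yy1 read 7095, 7023 and 6900.3 in WT and 6226, 6720.1 and 6617 in Ikzf4-/- cells, also without overlap (-0.10, limma adjusted p = 0.259). Nrf1, Gabpa and Tfam, which encode the factors NRF1 and GABP alpha and the mitochondrial transcription factor A, had 0.07, 0.00 and 0.07, each with overlapping values.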
